A study of Mus musculus with 8 samples.

Results

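Group 2 innate lymphoid cells, or ILC2s, are lymphocytes that settle in tissues, carry no antigen receptor of their own and act on the tissue around them through what they secrete. The 9 genes described here were chosen by name. They are the cytokine genes Il5, Il13, Il4, Il9, Il6, Csf2 and Il10, the opioid precursor gene Penk, and Furin. Furin encodes a membrane enzyme that cuts precursor proteins and is not itself a secreted cytokine. These genes are 9 of the 39527 genes in the deposited table, and 8 of them passed the filter on low values. Il9 did not.

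The cells were sorted as ILC2s from the epididymal fat pad, a visceral adipose tissue (VAT), of wild-type male mice of strain C57BL/6 aged 14 weeks. A high-fat diet, in 4 libraries called H1 to H4, was set against a normal diet, in 4 libraries called N1 to N4, and each diet had run for 8 weeks from the age of 6 weeks. All mice were wild type, although the series is titled for LKB1, a kinase upstream of AMPK. Nothing in the labels tells whether a library came from 1 animal or from pooled animals, so a p-value here measures the spread between libraries, which may be technical.

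In visceral fat, IL-5 from ILC2s sustains eosinophils, the granulocytes that it helps to mature and survive. IL-4 and IL-13 act through a shared receptor chain on macrophages and stromal cells, GM-CSF (the product of Csf2) acts on myeloid cells, and enkephalin peptides cut from the Penk product act on opioid receptors, with a described action on fat cells in mice. Il4, Il13 and Il5 lie next to one another on mouse chromosome 11 with Rad50 between Il13 and Il5, an arrangement that includes shared control elements, and Csf2 lies further along with Il3.

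Between the diets, Il5 was the member that moved most. Its level averaged 189 ± 48.1 FPKM on the high-fat diet and 780 ± 92.7 FPKM on the normal diet (SD, n = 4 each), and Furin was the only other tested member that fell. Il13 and Il4, the nearest cytokine genes to Il5, did not pass the test. In all, 2 of 8 tested members fell, 0 rose and 6 did not pass (limma on log2(FPKM + 1), Benjamini-Hochberg adjusted p under 0.05), where 1.88% of all 11483 tested genes fell and 2.86% changed in either direction. The median log2 fold change of the 8 was -0.32, and that of all tested genes was -0.02. FPKM is fragments per kilobase of gene scaled to the size of the library, and all log2 fold changes here are high-fat minus normal diet on the log2(FPKM + 1) scale, on which the change of a low gene appears too small.

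Sequence just upstream of Il5 and Il13 is shown because these neighbours differed in what they did between the diets. Each stretch holds 250 bases before and 50 after the annotated gene start, from RefSeq on GRCm38.p6, 5′ to 3′ on the strand of the gene. Capitals mark letters of the GATA motif (GATA or TATC, its reverse) and of the NFAT motif (GGAAA or TTTCC, its reverse). They are the letters that the ILC2 factor GATA3 and the activation-induced NFAT factors are known to prefer. The Il5 stretch is chr11:53720544-53720843 on the plus strand and the Il13 stretch is chr11:53634653-53634952 on the minus strand.

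Il5: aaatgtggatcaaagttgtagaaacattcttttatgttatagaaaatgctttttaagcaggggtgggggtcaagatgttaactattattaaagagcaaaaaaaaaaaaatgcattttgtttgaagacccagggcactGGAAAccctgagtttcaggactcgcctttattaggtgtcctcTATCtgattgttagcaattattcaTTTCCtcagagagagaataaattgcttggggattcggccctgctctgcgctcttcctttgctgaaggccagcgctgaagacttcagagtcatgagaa

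Il13: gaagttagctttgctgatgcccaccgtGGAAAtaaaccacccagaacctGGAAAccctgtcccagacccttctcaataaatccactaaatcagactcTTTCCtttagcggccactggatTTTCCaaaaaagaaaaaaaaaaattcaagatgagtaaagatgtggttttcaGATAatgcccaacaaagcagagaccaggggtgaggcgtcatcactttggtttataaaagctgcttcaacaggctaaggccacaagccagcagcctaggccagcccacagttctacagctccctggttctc

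The Il5 stretch held 1 GATA match, 71 bases before the start, and 2 NFAT matches, with a GC content of 40.0%. The Il13 stretch held 1 GATA match, 80 bases before the start, and 4 NFAT matches, with a GC content of 46.0%. No match of one motif overlapped a match of the other, and neither stretch held the AP-1 motif (TGANTCA, which is its own reverse). Over 27025 mouse promoters of the same length, 58.3% held GATA letters, 61.3% held NFAT letters and 7.93% held the AP-1 letters. At least 2 NFAT matches stood in 27.0% of those promoters and at least 4 in 2.65%. These are matches of letters, not sites shown to be bound. The table held promoters of 7 members, and among these the AP-1 letters stood only before Il9 and Il6.

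The labelled cell type was checked against marker genes. All 11 ILC2 markers used, among them Gata3, Il1rl1, Klrg1, Rora and Il7r, were expressed on both diets, and 2 of them were called lower. Their summed level was 6402 to 7198 FPKM in the high-fat libraries and 7806 to 9480 FPKM in the normal-diet libraries, without overlap, and Id2 and Rora made up most of it. The markers did not all go one way: Il7r stood at 203 to 272 FPKM in the high-fat libraries, above its 150 to 199 FPKM in the normal-diet libraries, and Thy1 overlapped, with a mean on the high-fat diet at 112% of that on the normal diet. Markers of mast cells were also high, at a summed 1717 to 7835 FPKM in the high-fat libraries, against 3747 to 7989 FPKM in the normal-diet libraries, led by Tpsb2, a mast cell tryptase. None of these 7 mast cell markers was called, and the lowest sum was that of H2. T cell markers summed to 839 to 1621 FPKM in the high-fat libraries, against 786 to 1070 FPKM in the normal-diet libraries, with 0 of 10 tested called. Each T cell marker overlapped between the diets. All but Cd8a had the higher mean on the high-fat diet, with Cd3e at 227% and Trac at 177% of the normal-diet mean. Endothelial markers summed to 25.0 to 133 FPKM in the high-fat libraries, against 14.6 to 19.5 FPKM in the normal-diet libraries, with 1 of 2 tested called higher. That one, Fabp4, carried most of the difference in the sum (9.68 to 104 FPKM in the high-fat libraries, against 0.788 to 1.81 FPKM in the normal-diet libraries). At low levels, Kdr (0.694 to 1.82 FPKM, against 0.0451 to 0.351 FPKM), Tie1 (0.583 to 3.07 FPKM, against 0.152 to 0.287 FPKM) and Cdh5 (0.333 to 0.416 FPKM, against 0.0241 to 0.315 FPKM) were also higher on the high-fat diet without overlap. Pecam1, Cldn5 and Flt1 overlapped, each with the higher mean on the high-fat diet. Macrophage markers summed to 12.0 to 13.0 FPKM in the high-fat libraries, against 8.27 to 9.76 FPKM in the normal-diet libraries, with 0 of 3 tested called (limma). Among them Adgre1 was lower without overlap (0.0952 to 0.797 FPKM in the high-fat libraries, against 0.984 to 1.80 FPKM in the normal-diet libraries), and Cd14 and Cd68 overlapped. C1qb and C1qc were higher without overlap, at 0.429 to 1.63 FPKM and 0.436 to 1.29 FPKM in the high-fat libraries. In the normal-diet libraries C1qb was at 0 and C1qc at 0 to 0.243 FPKM. C1qa, Lyz2, Csf1r and Mrc1 overlapped, each with the higher mean on the high-fat diet. No marker of any of the 12 cell types was at 0 in all libraries. The libraries held between 9005363 (H2) and 15752815 (H4) recovered reads. H2, with the fewest reads, held the most genes at 1 FPKM or more (13663), where the other libraries held 10763 (N2) to 11905 (H3). In RNA of a whole sorted population, fewer cells that make a transcript and less of it in each cell cannot be told apart.

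**Figure D1:**
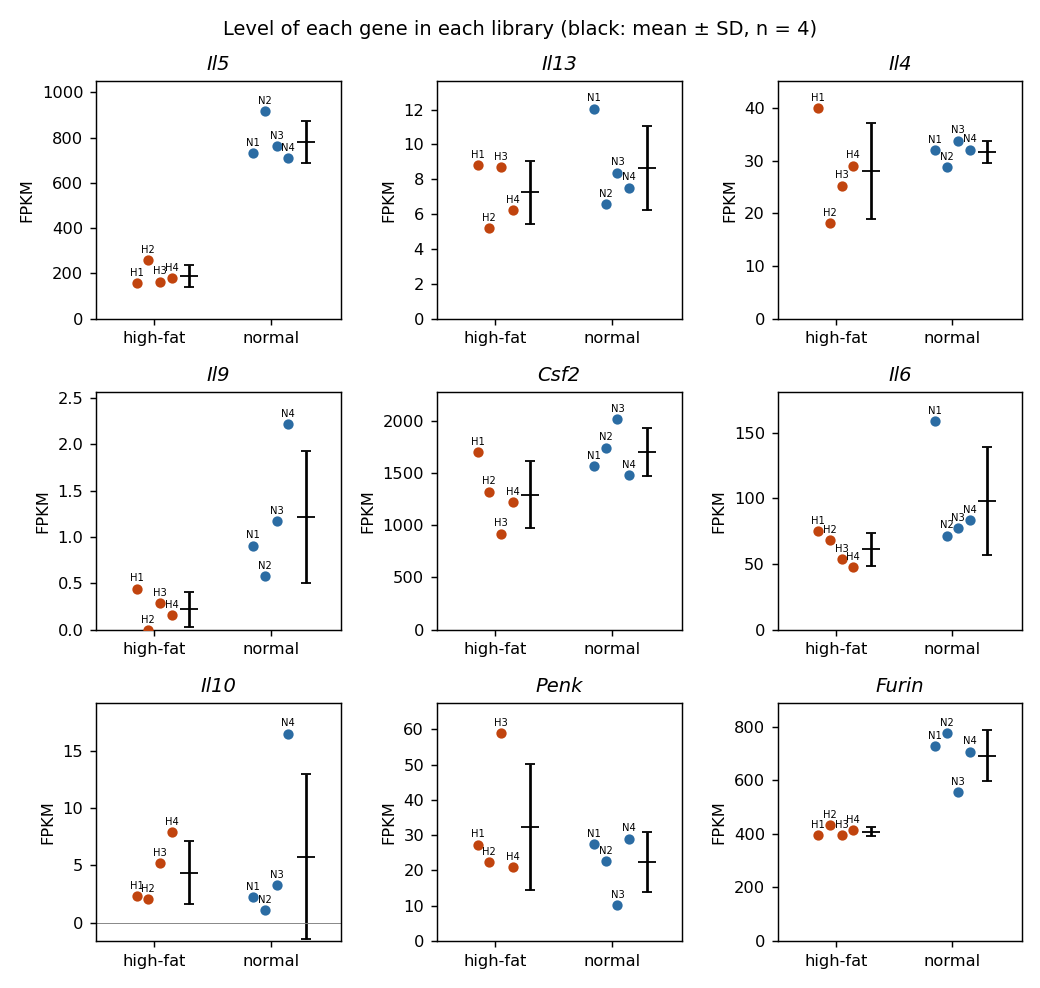
Level of each of the 9 genes in FPKM (vertical axes, each from its own range) in every library, high-fat diet on the left and normal diet on the right of each panel. Points are libraries and black bars are the mean and SD of 4; for Il5, Furin and Il9 the 2 diets do not overlap.

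Il5 (ENSMUSG00000036117; chromosome 11, 53720794 to 53725106, plus strand, GENCODE M21 on mm10) stood at 155, 260, 164 and 178 FPKM in H1 to H4, against 733, 916, 762 and 711 FPKM in N1 to N4. Every high-fat library was below every normal-diet library, and the highest high-fat value, that of H2, was still far under the lowest normal-diet value, that of N4. The log2 fold change was -2.06 (SE 0.17, 95% interval -2.43 to -1.69, limma, adjusted p = 7.63e-05). Mean FPKM was 4.12-fold lower on the high-fat diet. No tested gene had a smaller adjusted p, and the fall was the second largest among the 216 called lower. Among the 58 genes called lower with a mean of at least 100 FPKM it was the largest. Recovered reads were 3085 to 3733 in the high-fat libraries and 11570 to 16375 in the normal-diet libraries, with a counting error of at most 1.8%. An antisense gene, Gm12214, overlaps Il5 by 666 bases and has no values of its own here. The libraries do not mark strand, so any reads of that overlap cannot be assigned. The summed ILC2 markers stood on the high-fat diet at 75.2% of their mean on the normal diet, where Il5 stood at 24.3%. Single ILC2 markers ran from 60.6% (Il2ra) to 124% (Il7r). The part of the number of ILC2s in the level of Il5 was not tested.

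Il13 (chromosome 11, 53631324 to 53634702, minus strand), which acts on macrophages and epithelium, was a low transcript in these cells. It stood at 8.83, 5.21, 8.68 and 6.25 FPKM in H1 to H4, against 12.1, 6.57, 8.38 and 7.52 FPKM in N1 to N4. The diets overlapped, with H1 and H3 above 3 of the normal-diet libraries. Its log2 fold change was -0.22 (SE 0.20, 95% interval -0.65 to 0.21; limma, adjusted p = 0.618), so a fall of the size seen in Il5 lies outside its interval. The 49 reads in H2 give a counting error of 14.3% there.

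Il4 (chromosome 11, 53602982 to 53618669, minus strand), the cytokine that drives type 2 helper T cells and antibody class switching, stood at 39.9, 18.1, 25.2 and 29.1 FPKM in H1 to H4, against 32.0, 28.8, 33.8 and 32.1 FPKM in N1 to N4. The high-fat libraries held both the highest and the lowest value, and the normal-diet libraries lay close together between them. The log2 fold change was -0.22 (SE 0.20, 95% interval -0.64 to 0.20; limma, adjusted p = 0.608). Mast cells and basophils also make both cytokines, and H2, with the lowest Il4 and Il13, had the lowest summed markers of mast cells (1717 FPKM) and of basophils (77.8 FPKM, where the other libraries lay between 181 and 369 FPKM). H1, with the highest Il4, had 7835 FPKM of mast cell markers. N1, with the highest Il13, had only 3747 FPKM of mast cell and 181 FPKM of basophil markers, and N4, with the most mast cell markers (7989 FPKM), had neither the highest Il4 nor the highest Il13. Their part in the levels of Il4 and Il13 was not tested.

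Il9 (chromosome 13, 56479277 to 56482246), a growth factor for mast cells and for ILC2s themselves, was near the limit of detection. It stood at 0.442, 0, 0.290 and 0.161 FPKM in H1 to H4, against 0.906, 0.574, 1.17 and 2.22 FPKM in N1 to N4. All high-fat libraries were below all normal-diet libraries, but the values rest on 6 reads in the high-fat libraries together and 31 in the normal-diet libraries together. Relative to the total reads of each diet, the ratio of these reads was 0.206, high-fat over normal, with an exact 95% interval of 0.0702 to 0.501 that covers counting error only. The difference in mean FPKM was -0.994 with p = 0.0286 in an exact permutation test (two-sided), which is the smallest p that 4 libraries against 4 can give and is not adjusted for other genes. With no filter on low values, limma gave Il9 a log2 fold change of -0.82 and an adjusted p of 0.195. No call is made for Il9.

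Csf2 (chromosome 11, 54247271 to 54249667, minus strand) was the most abundant of the 9 transcripts on both diets. It stood at 1701, 1320, 920 and 1224 FPKM in H1 to H4, against 1565, 1743, 2011 and 1482 FPKM in N1 to N4. H1 lay above N1 and N4, so the diets overlapped, while the other 3 high-fat libraries lay below all normal-diet libraries. The log2 fold change was -0.42 (SE 0.18, 95% interval -0.81 to -0.03), and the adjusted p from limma was 0.234. It was -0.27 without H3, -0.22 under quantile normalization and -0.23 under voom on recovered reads. In each library Csf2 ranked between the 30th and the 78th of the tested genes by level. The antisense gene Gm12223 overlaps it and held 59 to 148 reads, and since the libraries do not mark strand, reads of the overlap cannot be assigned.

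Il6 (chromosome 5, 30013114 to 30019981), a cytokine of acute inflammation, stood at 75.0, 68.4, 53.8 and 47.5 FPKM in H1 to H4, against 159, 71.6, 77.2 and 83.4 FPKM in N1 to N4. N1 stood above all other libraries, and only H1 overlapped the normal diet, above N2. The log2 fold change was -0.61 (SE 0.24, 95% interval -1.13 to -0.10; limma, adjusted p = 0.192), and -0.35 without N1.

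Il10 (chromosome 1, 131019845 to 131024974), an anti-inflammatory cytokine made by regulatory T cells and by some ILC2s, stood at 2.32, 2.02, 5.22 and 7.87 FPKM in H1 to H4, against 2.21, 1.05, 3.27 and 16.5 FPKM in N1 to N4. H4 and N4 were highest on their diets, and N4 alone lay above all high-fat libraries. The log2 fold change was 0.04 with a 95% interval of -1.63 to 1.72 (limma, adjusted p = 0.985), an interval that leaves a change in either direction possible, and its sign changed with the library left out (-0.36 without N2, 0.67 without N4). The 4 regulatory T cell markers with values above 0 were also highest in H4 and N4, at a summed 96.4 FPKM in H4 and 52.6 FPKM in N4, and ranged from 41.1 to 96.4 FPKM in high-fat libraries, against 15.6 to 52.6 FPKM in normal-diet ones. None of the 4 was called, and their part in the level of Il10 was not tested.

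Penk (chromosome 4, 4133531 to 4138819), the precursor of the enkephalins, stood at 27.3, 22.3, 58.8 and 21.0 FPKM in H1 to H4, against 27.5, 22.6, 10.2 and 29.0 FPKM in N1 to N4. Apart from H3, the highest, and N3, the lowest, the libraries of both diets lay between 21.0 and 29.0 FPKM. The log2 fold change was 0.49 (SE 0.41, 95% interval -0.46 to 1.43; limma, adjusted p = 0.595). It was 0.16 without H3 and 0.17 without N3.

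Furin (chromosome 7, 80388585 to 80405436, minus strand) encodes a membrane protease of the Golgi that cuts precursors after basic residues, TGF-beta among them. It stood at 394, 431, 394 and 413 FPKM in H1 to H4, against 727, 777, 555 and 707 FPKM in N1 to N4. The high-fat libraries were nearly level and all lay below the lowest normal-diet library, N3. Its log2 fold change was -0.75 (SE 0.14, 95% interval -1.06 to -0.44; limma, adjusted p = 0.0119), with means of 408 ± 17.8 FPKM on the high-fat diet and 691 ± 95.6 FPKM on the normal diet (SD, n = 4 each). Without H3 the fall kept its size (-0.73) but missed the threshold (limma, adjusted p = 0.0512). Recovered reads were 16830 to 24556 in the high-fat libraries, against 28387 to 40784 in the normal-diet libraries, and the overlapping antisense gene Gm44851 held 1612 to 3109 reads that cannot be assigned by strand.

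Of the 8 tested members, the diets did not overlap for 2, Il5 and Furin, where 11.1% of all tested genes did not overlap.

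**Figure D2:**
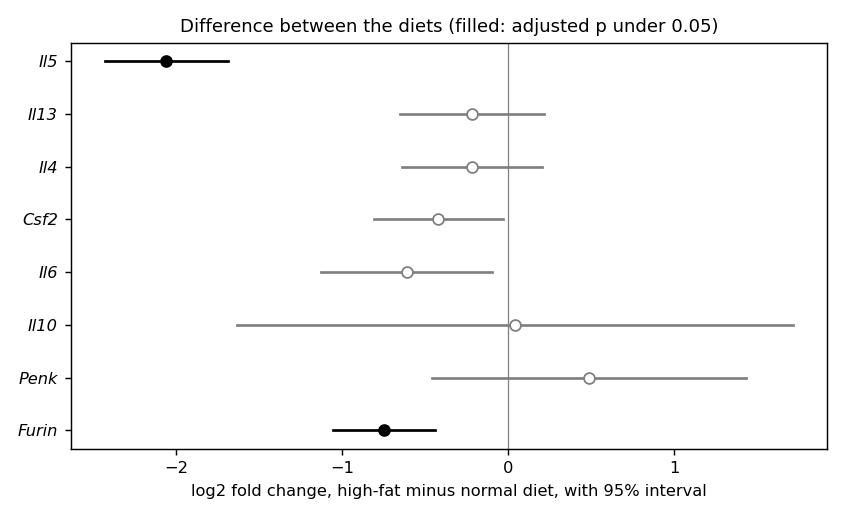
Log2 fold change, high-fat minus normal diet, of the 8 tested genes with its 95% interval from limma; filled points have an adjusted p under 0.05. Il5 at -2.06 and Furin at -0.75 are filled, and the intervals of Il13, Il4, Il10 and Penk hold 0.

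By mean level the order on the high-fat diet was Csf2, Furin, Il5, Il6, Penk, Il4, Il13, Il10 and Il9. On the normal diet it was Csf2, Il5, Furin, Il6, Il4, Penk, Il13, Il10 and Il9. Csf2 stood above every other member in every library. Furin lay above Il5 in all 4 high-fat libraries (ratio 1.66 to 2.54) and below it in all 4 normal-diet libraries (0.728 to 0.994), although the ranges of these genes overlapped on the normal diet. Penk and Il4 overlapped on both diets, as did Il13 and Il10. Levels of different genes depend on the length that the authors used: the deposited values imply 582 bases for Il4, 1110 for Il6 and 4302 for Furin, where all M21 exons together span 1227, 2428 and 9178 bases. For Penk they imply 1341 bases where the exons span 1634, and for Csf2 they imply 1037, more than the 800 of its exons. Shares of Csf2 in summed cytokine FPKM depend on that length as well. For Il5 and Il13 the implied lengths of 1538 and 1209 bases lie within 4 bases of the exons. Differences of 1 gene between the diets do not depend on its length.

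The make-up of the cytokine transcripts differed between the diets. Il5 held 7.83% to 15.5% of the summed FPKM of the 7 cytokine members in the high-fat libraries and 26.3% to 33.1% in the normal-diet libraries. Csf2 held 78.2% to 85.8% in the high-fat libraries, against 62.5% to 69.4% in the normal-diet libraries, without a call of its own. The sum itself was 1178 to 1983 FPKM in the high-fat libraries and 2335 to 2896 FPKM in the normal-diet libraries, again with no overlap. Il5 is part of this sum, so its fall by itself lowers the sum and the Il5 share and raises the Csf2 share. The mean level of Csf2 was 1291 FPKM on the high-fat diet and 1700 FPKM on the normal diet. The shares and the sum therefore give no separate support for the fall of Il5. There were 17.6 to 49.9 FPKM of Il5 for each FPKM of Il13 on the high-fat diet, against 60.8 to 139 on the normal diet. The ratio of Il4 to Il13 ran from 2.91 to 4.65 in the high-fat libraries, against 2.66 to 4.38 in the normal-diet libraries, so it overlapped.

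**Figure D3:**
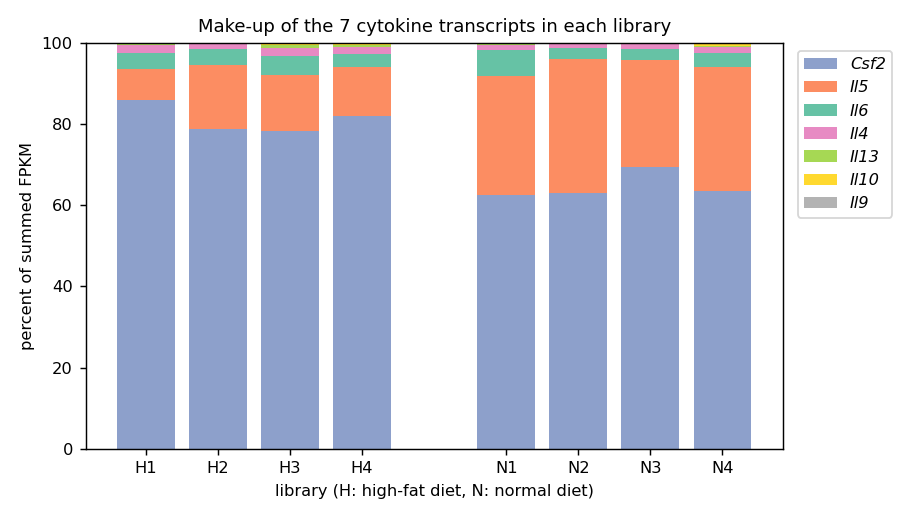
Share of each of the 7 cytokine transcripts in their summed FPKM (vertical axis, percent), with 1 bar for each library, high-fat on the left. The Il5 share is 7.83% to 15.5% in the high-fat libraries and 26.3% to 33.1% in the normal-diet libraries, and Csf2 makes up most of each bar.

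Whether Il5 moved apart from the other members was asked within each library with the log2 ratio of (Il5 FPKM + 1) to (member FPKM + 1). The added 1 makes this differ somewhat from the plain ratio for low genes such as Il13 and Il10. These 7 comparisons share the Il5 values, so they are not independent of one another. Il5 was set against the others with earlier results of these data known, and its fall enters every ratio. The ratios therefore give no separate support for that fall. The mean log2 ratio of Il5 to Il13 was 4.53 ± 0.64 on the high-fat diet and 6.37 ± 0.45 on the normal diet (SD, n = 4 each), a difference of -1.84 (exact permutation test, two-sided, p = 0.0286, adjusted over the 7 comparisons 0.0333). The difference was -1.84 for Il4, -1.45 for Il6, -1.64 for Csf2, -2.55 for Penk and -1.31 for Furin, each with the same exact permutation p, the smallest that 4 libraries against 4 allow. In these 6 ratios all 4 high-fat libraries were below all 4 normal-diet libraries. Against Il10 the difference was -2.10, with an overlap through N4 (exact permutation p = 0.0857, adjusted 0.0857). With 1 library left out, the ratio to Il13 missed the threshold without N2, N3 or N4 (adjusted exact permutation p 0.0571 to 0.0667), that to Il4 without any 1 of the normal-diet libraries (0.0571 to 0.0667) and that to Il6 without any 1 of the high-fat libraries (0.0667), where 3 libraries stand against 4. Without N2 or N3 the ratios to Csf2, Furin, Penk and Il6 stood at the threshold itself (adjusted exact permutation p = 0.05) and so did not pass, at differences of -2.50 to -1.22.

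**Figure D4:**
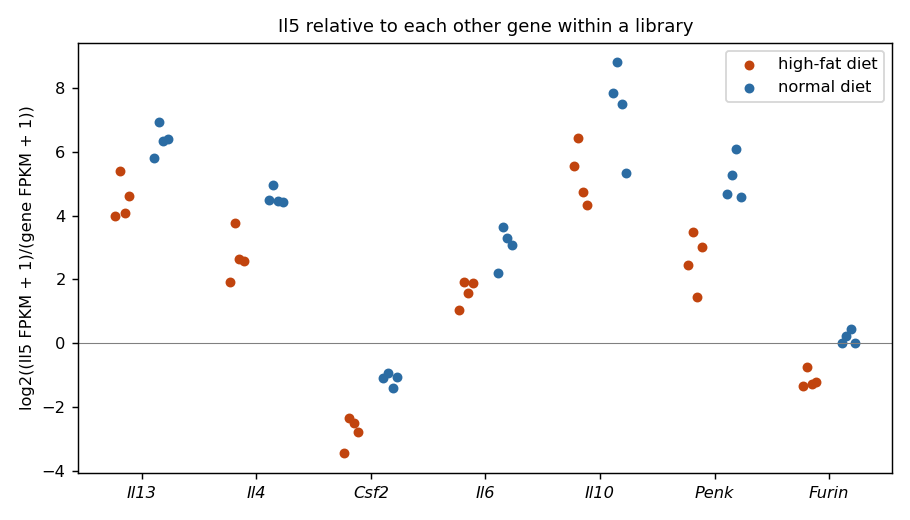
Log2 ratio of Il5 to each other tested member (vertical axis, both as FPKM + 1) in every library, high-fat diet in orange left of normal diet in blue. For all but Il10 the 4 high-fat libraries lie below the 4 normal-diet libraries.

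Genes around Il5 on chromosome 11 were examined because the cytokine genes there share control elements. Il4 and Il13 lie 12.7 kb apart, Il13 and Il5 86.1 kb, Il5 and Csf2 522.2 kb and Csf2 and Il3 15.6 kb. Of 15 listed neighbours 10 were tested, 1 fell and 0 rose, where 1.88% of all tested genes fell. All 10 had log2 fold changes below 0 (median -0.29), as did 5982 of the 11483 tested genes, and the number below 0 was 9 under quantile normalization and under voom on recovered reads, and 8 without H2 and N2. The one that fell was P4ha2, a prolyl hydroxylase subunit for collagen that starts 379.3 kb past the start of Il5, at 14.8 FPKM on the high-fat diet and 26.6 FPKM on the normal diet (log2 fold change -0.81, limma, adjusted p = 0.00821). Nearer to Il5, Rad50, a DNA repair gene, had -0.38 (adjusted p = 0.188) and Irf1, an interferon response factor, -0.57 (adjusted p = 0.249, limma). Slc22a5, a carnitine transporter, had -0.54 (limma, adjusted p = 0.0865) and Fnip1, a folliculin partner, -0.40 (adjusted p = 0.189). Kif3a, Aff4, Uqcrq, Gdf9 and Sept8 lay between -0.20 and -0.08. Il3 was under the filter, at a mean of 0.237 FPKM on the high-fat diet and 0.875 FPKM on the normal diet. In the whole window from 400 kb before to 700 kb after the start of Il5, 2 of 21 tested genes were called, Il5 and P4ha2. Not every tested gene of the window was lower: Zcchc10 had 0.02, and the pseudogenes Gm11188, Gm12213 and Gm12221 had 0.05, 0.61 and 0.39. None of them was called, and Gm12213 starts only 12.8 kb past the start of Il5.

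**Figure D5:**
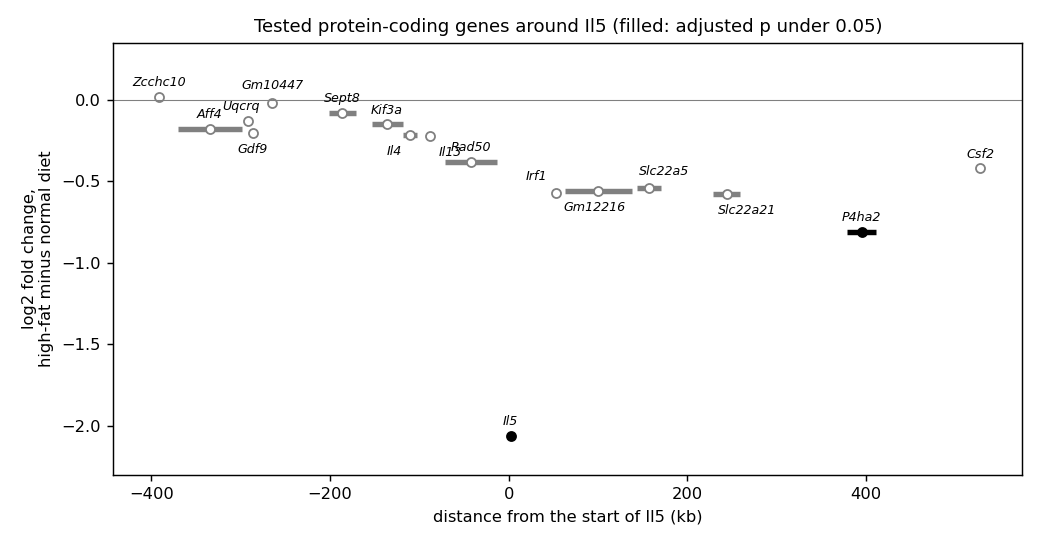
Log2 fold change, high-fat minus normal diet (vertical axis), of tested protein-coding genes by distance from the start of Il5 in kb (horizontal axis); bars span the genes and filled points have an adjusted p under 0.05. Il5 lies at -2.06, P4ha2 at -0.81, and the other genes between -0.58 and 0.02.

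Among regulators of type 2 cytokine transcription, 37 of 38 were tested, 1 rose, 5 fell and 31 did not pass, with a median of -0.03. Those called were 16.2% of the 37, where 2.86% of all tested genes were called, with a median of -0.02. The list was chosen with earlier results of these data known and was not tested as a set. Irf4, a factor of activated lymphocytes, rose to 8.69 ± 2.61 FPKM on the high-fat diet, against 3.05 ± 0.73 FPKM on the normal diet (SD, n = 4 each; log2 fold change 1.23, limma, adjusted p = 0.00735). Gata3, an ILC2 factor and known regulator of Il5 and Il13, fell to 648 ± 66.6 FPKM on the high-fat diet, against 982 ± 139 FPKM on the normal diet (-0.59, limma, adjusted p = 0.0449). Its call ended in 11 of 16 alternatives, among them without any 1 library other than N3 (limma, adjusted p up to 0.115). The remaining calls were falls of Nfatc1, an NFAT factor (-0.70), Satb1, a chromatin organiser (-0.80), Xbp1, a factor of secretory capacity (-0.73), and Nfkb1, an NF-kB subunit (-0.63), with adjusted p between 0.0154 and 0.0297. The call of Irf4 ended in 0 of the 16 alternatives. That of Nfatc1 ended in 5, among them without H1, H3 or N2, and that of Nfkb1 in 9, among them without any 1 library other than H2 and N3. The call of Satb1 ended in 5 and that of Xbp1 in 7, in both cases among them without N1, N2, H3 or H4 (limma, adjusted p up to 0.0933 over all alternatives of these 4 genes). Stat6, which acts below the IL-4 receptor, had -0.57 (adjusted p = 0.0755), and Rora, an ILC2 lineage factor, -0.48 (adjusted p = 0.0749, limma); both were named after their values were seen.

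Among other secreted products 25 of 33 were tested, 2 rose, 1 fell and 22 did not pass, with a median of 0.03. Those called were 12.0% of the 25, where 2.86% of all tested genes were called. Il2, a growth factor of lymphocytes, rose to 12.2 ± 2.56 FPKM on the high-fat diet, against 5.32 ± 1.55 FPKM on the normal diet (log2 fold change 1.08, limma, adjusted p = 0.0123). Lta, lymphotoxin alpha, rose to 29.8 ± 1.58 FPKM on the high-fat diet, against 18.9 ± 2.99 FPKM on the normal diet (0.64, limma, adjusted p = 0.0324). Vegfa, the growth factor of blood vessels, fell to 14.0 ± 3.28 FPKM on the high-fat diet, against 33.2 ± 8.25 FPKM on the normal diet (-1.18, limma, adjusted p = 0.00625). The call of Lta ended in 8 of 16 alternatives, among them without any 1 library other than H2 and N3 (limma, adjusted p up to 0.0965). That of Il2 ended in 2, among them without H4 (limma, adjusted p up to 0.0577), and that of Vegfa in 0. T cell markers other than Cd8a also had higher means on the high-fat diet, and the part of T cells in the levels of Il2 and Lta was not tested. The precursor of the peptide CGRP, Calca, just missed the threshold at 845 FPKM on the high-fat diet and 1388 FPKM on the normal diet (-0.72, limma, adjusted p = 0.051); it was named after its values were seen.

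Of 17 receptor genes for the members 12 were tested, 1 fell and 0 rose, with a median of -0.23. The 1 called was 8.33% of the 12, where 2.86% of all tested genes were called. Il2rg, the common gamma chain of the IL-4 and IL-9 receptors, fell to 879 ± 90.8 FPKM on the high-fat diet, against 1378 ± 232 FPKM on the normal diet (-0.64, limma, adjusted p = 0.0428), a call that ended in 11 of 16 alternatives, among them without any 1 library other than N3 (adjusted p up to 0.125). Il5ra, the receptor chain that is specific for IL-5, was under the filter on both diets. Of 16 genes for other convertases and for propeptide processing 8 were tested and 0 were called (limma), where 2.86% of all tested genes were called. The most expressed were Pcsk1, which cuts prohormones, at 39.0 ± 7.10 FPKM on the high-fat diet and 51.0 ± 18.3 FPKM on the normal diet (-0.33, limma, adjusted p = 0.476), and Mbtps1, the site-1 protease, at 24.3 ± 6.65 FPKM on the high-fat diet and 24.2 ± 3.14 FPKM on the normal diet (-0.02, limma, adjusted p = 0.972).

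Across the 8 libraries the genes most like Il5 were Slc16a3, a lactate and pyruvate exporter, with a Pearson correlation of 0.993 in log2(FPKM + 1), Usp2, a deubiquitinase, with 0.993, Ypel2 with 0.986 and Lilrb4a, an inhibitory receptor, with 0.983. These are descriptions over 8 libraries that share the diet difference and their scaling, taken from 5442 genes with a mean of at least 10 FPKM. Slc16a3 averaged 12.1 FPKM on the high-fat diet and 37.0 FPKM on the normal diet, and Lilrb4a averaged 824 FPKM on the high-fat diet and 1578 FPKM on the normal diet. For Furin they were Rab20 with 0.993, Nrros with 0.982, Ntmt1 with 0.982 and again Lilrb4a with 0.980. For Il13 the closest was Pou2f1 with 0.911, followed by Snrpd1 with 0.893, Nfkbiz with 0.889 and Npm3 with 0.878, and none of these 4 was called between the diets (limma, adjusted p 0.347 to 0.956).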

How the data were processed

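The 8 libraries, 4 for each diet, were made from RNA of sorted cells. Trizol extraction, full-length cDNA by the SMART-Seq HT kit and the TruePrep transposase kit, which does not mark strand, are described per the labels' protocols. HISAT2, Cufflinks and mm10 are named per the submitters' processing notes, while their versions and the annotation were not given in the sources used here. Values were deposited as FPKM per the file headers, 1 per gene and library. They depart from plain FPKM: 14605 of 39527 genes hold values below 0, and a factor of 0.863 to 1.18 repeats every 10 rows. The table was therefore treated as values of another kind than plain FPKM, with the test planned for FPKM. With the factor known, whole reads were recovered for all 24107 genes above 0 (100%, relative tolerance 1e-06), 9005363 to 15752815 in a library, and these set the counting precision. The factor shifts the log2 fold changes of the members by -0.08 to 0.07 and was kept.

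Genes with at least 1 FPKM in at least 4 of 8 libraries and no value below 0 were tested (11483) as log2(FPKM + 1) in limma 3.58.1 (R 4.3.3, trend and robust), with diet as the only term, two-sided, Benjamini-Hochberg adjustment at 0.05. The code was tested on simulated data. Il9 and the ratios to Il5 were tested by exact permutation over libraries. Alternatives were a pseudocount of 0.1, no filter, quantile normalization, equal medians, the row factor divided out, limma voom on recovered reads, a replicate block, each library left out and both number 2 libraries left out. The labels do not say that the numbers in the titles pair libraries. The correlations of deviations between same-numbered libraries were -0.071, -0.255, -0.072 and 0.078, which shows no shared effect but cannot settle whether libraries were paired. Named genes were all members, every called gene of each other list (where none was called, the 2 with the highest mean), every tested neighbour, and the 4 genes most correlated with Il5, Furin and Il13. Members and lists were chosen with earlier results of these data known. Positions are from GENCODE M21.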

Additional observations from a re-analysis of the deposited data

Results flagged for a closer look

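Of the 18 groups of 4 libraries (9 genes on 2 diets), 3 held a library that stood apart, by a gap to the nearest library that, as a share of the range of the group, exceeded Dixon's 95% critical value. Chance gives this in about 1 in 20 groups. Penk stood at 58.8 FPKM in H3, with a gap of 0.833 of the range. Il6 stood at 159 FPKM in N1 (0.866) and Il10 at 16.5 FPKM in N4 (0.856). None of the 3 genes was called between the diets, and none was called when the library concerned was left out.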

How the results depend on the processing

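The fall of Il5 was called in all 16 alternatives, with log2 fold changes of -2.22 to -1.86, and that of Furin in 15 of 16 (-0.85 to -0.56), so without H3 the count of members called lower was 1 in place of 2 (1 to 2 with 1 library left out). No other tested member was called in any alternative. Il13 and Il4 turned to 0.02 and 0.05 under voom on recovered reads, where the median of all genes stood at 0.14, and Il10 took either sign (-0.36 to 0.67). Over all genes, 112 were called higher and 216 lower. Without a filter the counts were 41 and 89, with the row factor divided out 185 and 386, and under voom 1102 and 390. Higher calls were 173 at equal medians, 226 under quantile normalization and 242 without H2 and N2. With 1 library left out, 40 (without H4) to 255 (without H2) genes were called higher and 84 (without H3) to 281 (without H2) lower. Under a replicate block 113 were called lower. The block made the exact test of the Il5 ratios a comparison of 4 pairs, which cannot go below an adjusted p of 0.125, at unchanged differences (Csf2 -1.64, Furin -1.31, Il13 -1.84, Il4 -1.84, Il6 -1.45, Penk -2.55). It ended no call of a member by limma, and no library correlated best with that of its own number. With 1 library left out, the difference ran from -2.13 to -1.65 for Il13, -2.19 to -1.57 for Il4, -1.73 to -1.25 for Il6, -1.78 to -1.41 for Csf2, -1.45 to -1.22 for Furin, -2.84 to -2.16 for Penk and -2.78 to -1.62 for Il10, which passed without N4 (adjusted p = 0.04, exact permutation). The difference of Il9 had an exact permutation p under 0.05, not adjusted for other genes, in 5 of 11 alternatives (0.0286 to 0.125). The replicate block (exact permutation p = 0.125) and the comparison without H2 and N2 (0.1) gave the smallest p they allow, so they could not pass. The cause of the other changes was not tested. Depth limits Il9, Il10 and Il13, with as few as 0, 15 and 49 reads in a library.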
